A study of Homo sapiens with 4 samples.

Results

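The short arm of human chromosome 1 ends in band 1p36.3, a gene-dense stretch in which signalling receptors, Notch-type repressors and housekeeping genes lie close together. The genes described here are 33 neighbours of this band, from PRKCZ at the distal end to NOL9 at the proximal end, measured in CAL-27, a cell line grown from a squamous cell carcinoma of the human tongue. They were taken by symbol from a list of genes of the band that had been drawn up with the resistant against parental differences of these arrays known. Their differences in that contrast are therefore a description, and no test of it is used as support. Of the 33 genes, 27 had a named row on the array, out of 15073 genes with a named row in all. MMEL1, PRDM16, SMIM1, DFFB, CHD5 and ACOT7 had none, so their levels were not analysed here.

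Cisplatin-resistant CAL-27 cells, derived under cisplatin that was raised stepwise from 1e-07 M to 1e-05 M, were compared with parental CAL-27 cells. Both were kept in DMEM with fetal bovine serum. Cisplatin is a platinum drug that crosslinks DNA. Whether the drug was present at harvest, and whether the resistant cells are 1 clone, was not given in the sources used here. Each group held 2 arrays of total RNA. Nothing in the labels says whether the replicates came from separate cultures, so p-values measure only the spread between these arrays, which may be technical.

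Values are log2 of the deposited intensity, and differences are resistant minus parental with limma's moderated standard error (n = 2 arrays per group). Median intensities were 148.7 and 149.9 on the resistant arrays and 141.2 and 143.0 on the parental arrays. Of the 7 squamous epithelial markers checked, KRT5, KRT17, EPCAM and CDH1 were bright, with group means of 12.06 or more in both groups. They differed by -0.44, -0.79, 0.91 and 0.76 in that order, and none passed limma's test over all genes with a constant prior variance. With a prior variance following intensity, KRT17 passed lower, beside 11.5% of all genes. EPCAM and CDH1 then passed higher, beside 9.93%. TP63 averaged 10.85 in resistant and 13.62 in parental arrays. KRT14 averaged 9.14 against 15.42 and KRT6A 8.08 against 14.99 in parental arrays. TP63, KRT14 and KRT6A all fell in limma's test over all genes. Of the markers of other cell types, COL1A1 of fibroblasts (10.72 against 7.49) and CDH5 of endothelium (9.25 against 4.23) rose in the resistant arrays. The remaining 11 markers of leukocytes, fibroblasts and endothelium did not pass limma's test over all genes, and their group means reached at most 8.23. The part of these marker shifts in the 1p36.3 differences was not tested.

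Genes of 1p36.3 are known in cancer because the band is often lost in tumours such as neuroblastoma, and several of them have been studied as candidate suppressors. Neighbouring genes can share a copy number, a stretch of chromatin or a promoter between head-to-head starts, yet each has its own regulators. HES2, HES5, HES3 and HES4, which all map near this end of chromosome 1, encode basic helix-loop-helix repressors of the family through which Notch receptors act in epithelia.

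The stretches upstream of 4 members are shown because HES2, GPR153 and PLCH2 had some of the most negative differences between resistant and parental cells, while RER1 differed by almost nothing. Each is the 250 bases before the first listed start of the gene (RefSeq, GRCh38.p14), written 5′ to 3′ on the gene's strand, with GC boxes (GGGCGG, or CCGCCC on the other strand) in capitals. Overlapping boxes merge into 1 run, and PLCH2 has 3 listed starts.
HES2, chr1:6419920-6420169, minus strand: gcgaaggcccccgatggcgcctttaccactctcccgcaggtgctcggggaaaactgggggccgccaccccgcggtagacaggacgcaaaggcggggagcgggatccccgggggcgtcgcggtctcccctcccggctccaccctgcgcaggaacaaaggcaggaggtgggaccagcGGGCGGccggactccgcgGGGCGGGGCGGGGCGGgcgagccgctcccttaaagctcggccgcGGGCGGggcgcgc
GPR153, chr1:6261099-6261348, minus strand: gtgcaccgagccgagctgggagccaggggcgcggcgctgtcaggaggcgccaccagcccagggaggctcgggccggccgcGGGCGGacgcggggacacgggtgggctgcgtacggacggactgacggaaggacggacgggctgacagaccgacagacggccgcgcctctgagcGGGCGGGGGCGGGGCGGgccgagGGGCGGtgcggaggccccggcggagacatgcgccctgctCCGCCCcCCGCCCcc
PLCH2, chr1:2467201-2467450, plus strand: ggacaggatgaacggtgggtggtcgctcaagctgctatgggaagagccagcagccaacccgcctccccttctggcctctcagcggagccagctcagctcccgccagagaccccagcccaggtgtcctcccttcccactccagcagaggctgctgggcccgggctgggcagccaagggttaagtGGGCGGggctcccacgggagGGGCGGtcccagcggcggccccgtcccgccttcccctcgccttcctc
RER1, chr1:2391591-2391840, plus strand: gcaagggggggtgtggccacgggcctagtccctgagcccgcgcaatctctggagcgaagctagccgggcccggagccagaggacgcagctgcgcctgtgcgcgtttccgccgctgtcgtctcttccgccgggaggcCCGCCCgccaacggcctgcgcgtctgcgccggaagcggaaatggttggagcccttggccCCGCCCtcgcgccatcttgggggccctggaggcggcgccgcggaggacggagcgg

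HES2 held 5 GC boxes in this window, GPR153 held 7, and PLCH2 and RER1 held 2 each. ICMT, with a difference of -0.16, also held 7, while LRRC47, with one of -0.94, held 0. A relation between the number of boxes and the difference was not tested. Of the 33 genes, 28 were matched in the promoter table, and 20 of these 28 had a GC box, against 56.0% of 15843 promoters of protein-coding genes. The 28 include MMEL1, SMIM1 and ACOT7, which had no named row on the array. ESPN, with a difference of -1.80, was not matched. The median number of CpG pairs was 25.5 for the matched members and 17 for all, and the median GC content was 70.6% and 62.4%. None of the 28 windows held TATAAA on either strand, which 9.23% of all held. A match or its lack describes letters in this window and not binding.

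NPHP4 and KCNAB2 start head to head from 1 shared stretch, shown because both differed little. NPHP4 lies on the minus strand and KCNAB2 on the plus strand, with 250 bases between their starts, for the first of 4 listed KCNAB2 starts. The stretch is given on the KCNAB2 strand, with CCAAT boxes (CCAAT, or ATTGG on the other strand) in capitals.
KCNAB2 and NPHP4, chr1:5992426-5992675: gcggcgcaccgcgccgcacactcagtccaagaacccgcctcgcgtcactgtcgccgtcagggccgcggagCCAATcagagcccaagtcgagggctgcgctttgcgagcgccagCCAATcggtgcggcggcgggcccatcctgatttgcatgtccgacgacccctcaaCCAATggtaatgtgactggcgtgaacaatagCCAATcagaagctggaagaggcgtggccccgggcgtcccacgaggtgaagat

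This stretch held 4 CCAAT boxes. At least 1 was held by 9 of the 28 matched windows, with this stretch counted for both genes, and by 34.5% of all promoters. MORN1 and RER1 form a second head-to-head pair, with 286 bases between their starts, so that the whole RER1 sequence above lies between them.

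Most members were dimmer in the resistant arrays. In 24 of the 27 measured members the resistant mean lay below the parental mean, against 51.7% of all 15073 genes. The median difference of the members was -0.73, with quartiles of -1.01 and -0.18, beside -0.03 over all genes. Both resistant arrays lay below both parental arrays in 21 members, where 31.0% of all genes did so, and in the other 6 the groups overlapped. The same order held in 19 of 38 measured genes between the chromosome end and PRKCZ, and in 22 of the 40 that follow NOL9. Members were also brighter than all genes, with a median log2 intensity of 10.02 against 8.26. Their replicates lay closer, with median gaps of 0.16 (resistant) and 0.20 (parental) against 0.26 and 0.32 over all genes. None of the members had both resistant arrays above both parental arrays, which 27.9% of all genes had.

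HES2, GPR153, ESPN and PLCH2 fell in limma's test over all genes, so that 4 members passed lower beside 2.83% of all genes and 0 passed higher beside 3.26%. At least 2-fold lower were 7 members, beside 9.10% of all genes. With limma's prior variance following intensity, 12 members passed lower and 0 higher, against 11.5% and 9.93% of all genes. Since the members were chosen on this contrast, nothing is read from these shares. When all 42152 rows were tested together with the constant prior, 0 rows passed in limma (smallest adjusted p = 0.0606), although 3546 were lower and 4350 higher at an unadjusted p under 0.05. With the prior following intensity 1887 rows passed lower and 2073 higher. With the constant prior and any 1 array left out, or the replicate number as a block, 0 genes passed in limma. With the block and the prior following intensity 13 of the 27 members passed lower, beside 1872 of all 15073 genes. HES2, GPR153, ESPN and PLCH2 were among the 13. Unless another prior is named, a gene that passed or did not pass below did so with the constant prior. With 2 arrays per group an exact two-sided permutation test of 1 gene cannot give a p below 0.333.

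**Figure D1:**
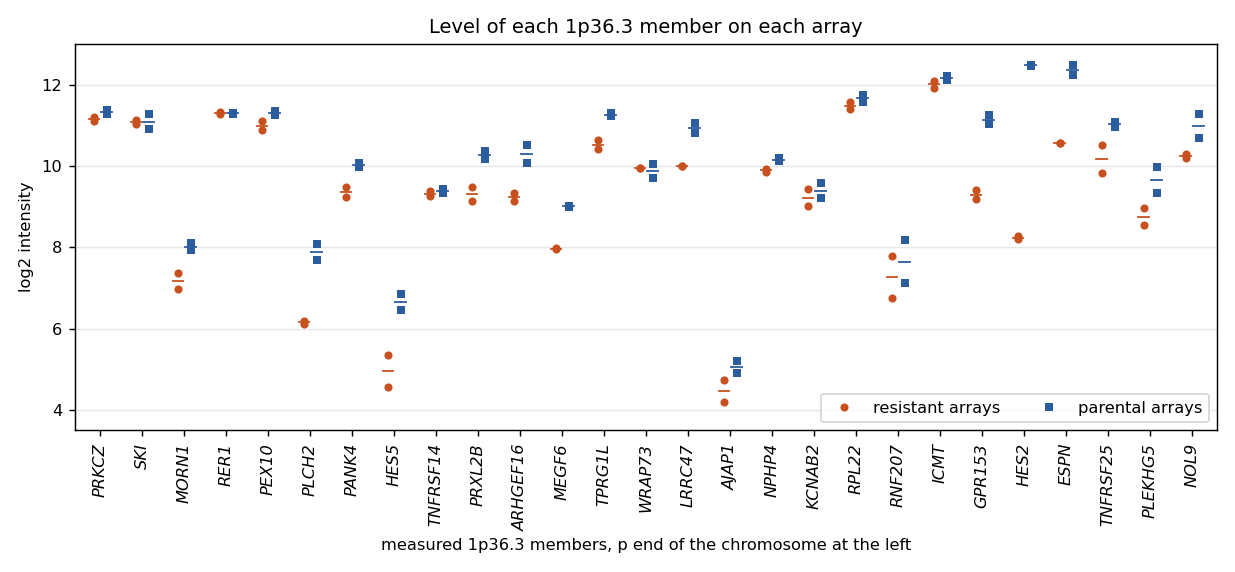
Log2 intensity of the 27 measured members on each array, in chromosome order, with resistant arrays as circles on the left and parental arrays as squares on the right of each gene. Horizontal lines are group means (n = 2). HES2 shows the widest separation, with means of 8.24 in resistant and 12.47 in parental arrays, while RER1, SKI and TNFRSF14 overlap.

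The repressors of transcription differed widely among themselves. HES2 had 8.19 and 8.29 in resistant arrays, against 12.46 and 12.48 in parental arrays. The replicates of each group nearly coincided and the groups lay far apart. The difference was -4.23 ± 0.18, so HES2 was 18.8-fold lower in the resistant cells. HES5, a direct effector of Notch signalling, had 5.34 and 4.56 in resistant arrays, against 6.86 and 6.46 in parental arrays. The groups did not overlap, but all 4 values were dim and the difference of -1.71 ± 0.36, which did not pass, is nominal. SKI, a co-repressor of SMAD proteins in TGF-beta signalling, had 11.14 and 11.03 in resistant arrays, against 10.90 and 11.27 in parental arrays. Both resistant values lay between the parental ones, and the difference was 0.00 ± 0.22.

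Among the membrane receptors, GPR153, an orphan G protein-coupled receptor, had 9.19 and 9.40 in resistant arrays, against 11.02 and 11.24 in parental arrays. The groups lay much farther apart than their replicates, with a difference of -1.84 ± 0.21, or 3.57-fold lower. TNFRSF14, the herpesvirus entry mediator and receptor of the ligand LIGHT, had 9.26 and 9.37 in resistant arrays, against 9.43 and 9.33 in parental arrays. These groups overlapped, and the difference was -0.06 ± 0.18.

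TNFRSF25, which encodes death receptor 3, had 4 rows for different RefSeq transcripts. In the brightest row, resistant arrays had 10.51 and 9.83, against 11.08 and 10.97 in parental arrays, a difference of -0.85 ± 0.30 that did not pass and was -0.51 without resistant replicate 2. The next rows differed by -0.80 and -0.91. The dimmest row had 9.31 and 9.02 in resistant arrays, against 10.70 and 10.69 in parental arrays, a difference of -1.54. All 4 rows were lower in both resistant arrays. Whether the transcripts share probe sequence was not given in the sources used here, so the rows are not independent measurements. ESPN overlaps TNFRSF25 in RefSeq, and since both cDNA strands were labelled, signal from the overlap cannot be assigned to either. The same holds for RER1 with PEX10, RNF207 with ICMT, PRXL2B with MMEL1, MORN1 with LOC100129534, TNFRSF14 with TNFRSF14-AS1, and PRKCZ with PRKCZ-AS1 and FAAP20.

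Signalling enzymes and exchange factors of small GTPases had both resistant arrays below both parental arrays in 4 of 4 genes, beside 31.0% of all genes. PLCH2, a phospholipase C of the eta class, had 6.12 and 6.18 in resistant arrays, against 7.68 and 8.08 in parental arrays. The resistant values were dim and close together, and the difference was -1.73 ± 0.23, or 3.31-fold lower. With an offset of 32 before log2 the PLCH2 difference was -1.38, so its fold depends on the handling of dim values. ARHGEF16, a guanine nucleotide exchange factor, had 9.13 and 9.33 in resistant arrays, against 10.07 and 10.51 in parental arrays (difference -1.06 ± 0.25). PLEKHG5, another exchange factor, had 8.97 and 8.54 in resistant arrays, against 9.34 and 9.97 in parental arrays. Its groups did not overlap, but the parental replicates were 0.64 apart and the difference of -0.90 ± 0.33 was -0.58 without parental replicate 2. PRKCZ, the atypical protein kinase C zeta of cell polarity, differed least of the 4, with 11.09 and 11.21 in resistant arrays, against 11.37 and 11.29 in parental arrays. Its difference was -0.18 ± 0.18, no larger than its standard error.

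Genes of the cytoskeleton, adhesion, matrix and cilium ranged from -1.80 to 0.08. ESPN, which encodes the actin-bundling protein espin, had 10.56 and 10.56 in resistant arrays, against 12.24 and 12.48 in parental arrays. The resistant replicates were almost identical and far below both parental ones, with a difference of -1.80 ± 0.19, or 3.48-fold lower. ESPN has a closely similar pseudogene elsewhere on the chromosome that may share probe signal. MEGF6, a secreted protein with many EGF-like domains, had 7.95 and 7.97 in resistant arrays, against 9.00 and 9.01 in parental arrays. Its replicates agreed to within 0.02 in both groups and the difference was -1.04 ± 0.18, which did not pass with the constant prior and did with the prior following intensity.

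AJAP1, a transmembrane protein of adherens junctions, was the dimmest member, with 4.19 and 4.75 in resistant arrays, against 4.92 and 5.19 in parental arrays. At this level its difference of -0.59 ± 0.28, which was -0.31 without resistant replicate 1, is nominal, and its second row differed by -0.38. NPHP4, nephrocystin 4 of the ciliary transition zone, had 9.86 and 9.92 in resistant arrays, against 10.19 and 10.11 in parental arrays (difference -0.26 ± 0.18). WRAP73, a WD repeat protein of the centrosome, had 9.94 and 9.96 in resistant arrays, against 10.04 and 9.71 in parental arrays. It overlapped between groups, with a difference of 0.08 ± 0.21.

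Genes of membrane traffic, organelles and ion channels varied least, between -0.30 and 0.01. RER1, which returns membrane proteins from the Golgi to the endoplasmic reticulum, had 11.33 and 11.27 in resistant arrays, against 11.31 and 11.28 in parental arrays. The 4 arrays agreed within 0.07. PEX10, a RING-finger peroxin, had 11.09 and 10.89 in resistant arrays, against 11.35 and 11.24 in parental arrays (difference -0.30 ± 0.19). ICMT, which methylates the C-terminus of prenylated proteins such as RAS, had 12.09 and 11.92 in resistant arrays, against 12.22 and 12.11 in parental arrays, a difference of -0.16 ± 0.19. KCNAB2, a beta subunit of voltage-gated potassium channels, had 9.43 and 9.01 in resistant arrays, against 9.21 and 9.57 in parental arrays. Its groups overlapped, and its difference of -0.17 ± 0.26 lay close to that of its head-to-head neighbour NPHP4.

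The metabolic genes PANK4 and PRXL2B were lower in both resistant arrays. PANK4, a member of the pantothenate kinase family of coenzyme A synthesis, had 9.49 and 9.24 in resistant arrays, against 9.98 and 10.07 in parental arrays (difference -0.66 ± 0.20). PRXL2B, a prostaglandin F synthase of the peroxiredoxin-like family, had 9.13 and 9.48 in resistant arrays, against 10.38 and 10.18 in parental arrays, a difference of -0.97 ± 0.23. Of the genes of ribosomes and ribosomal RNA, NOL9, a polynucleotide kinase that processes pre-rRNA, had 10.19 and 10.30 in resistant arrays, against 10.68 and 11.27 in parental arrays. The parental replicates of NOL9 lay 0.58 apart, and the difference of -0.73 ± 0.28 was -0.44 without parental replicate 2. RPL22, a protein of the large ribosomal subunit, had 11.57 and 11.41 in resistant arrays, against 11.75 and 11.57 in parental arrays (difference -0.18 ± 0.20).

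The last 4 members are known mainly by their domains. LRRC47, a leucine-rich repeat protein, had 10.00 and 10.00 in resistant arrays, against 10.82 and 11.05 in parental arrays, a difference of -0.94 ± 0.19. TPRG1L, known in rodents as a protein of synaptic vesicles, had 10.64 and 10.41 in resistant arrays, against 11.31 and 11.22 in parental arrays (difference -0.74 ± 0.20). It stood in contrast to its direct neighbour WRAP73, which overlapped between groups. MORN1, a protein of MORN repeats, had 6.99 and 7.36 in resistant arrays, against 7.93 and 8.11 in parental arrays, a difference of -0.85 ± 0.23, whereas RER1 on the other side of the shared stretch differed by 0.01. RNF207, a RING-finger protein, was the noisiest member, with 6.74 and 7.79 in resistant arrays, against 7.11 and 8.18 in parental arrays. The RNF207 replicates lay farther apart than the groups, which overlapped, and its difference was -0.38 ± 0.56. When each resistant array was set against each parental array, 24 or 25 of the 27 members were lower, beside 50.7% to 52.7% of all genes. The members' medians lay between -1.003 and -0.49, beside -0.05 to -0.01 for all genes. These pairs reuse the same arrays and the contrast on which the members were chosen, so they are not separate evidence.

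Along the chromosome the members did not move evenly. Taken in runs that were drawn after the values were seen, the 5 measured members from PRKCZ to PEX10 had a median difference of -0.18 and the 10 from PLCH2 to LRRC47 one of -0.95. The 6 from AJAP1 to ICMT had a median of -0.22, and the 6 from GPR153 to NOL9 one of -1.35. In the last run 6 of 6 genes had both resistant arrays below both parental arrays, as had 31.0% of all genes, and nothing is read from a run drawn in this way. TNFRSF14 and WRAP73 were near 0 within a run of lower genes. In bulk RNA, fewer cells with a transcript and less of it per cell cannot be told apart.

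**Figure D2:**
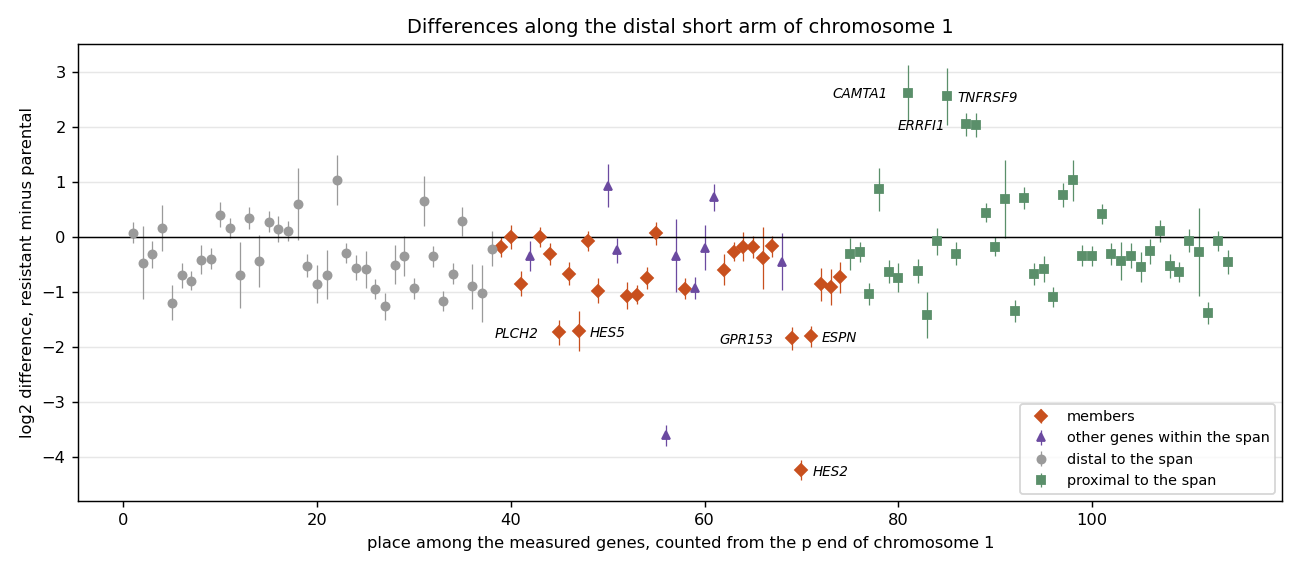
Log2 difference, resistant minus parental, with limma's standard error as bars (n = 2 arrays per group), for measured genes in their order from the p end of chromosome 1. Diamonds are the 27 members, triangles the 9 other measured genes within their span, circles the 38 genes distal to it and squares the 40 proximal to it. Members lie mostly below 0 with HES2 at -4.23. Of the 40 proximal genes, 28 lie below 0 and several lie above 2.

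Within the span, 9 further genes were measured that are not members. In 7 of these the resistant mean lay below the parental mean, against 51.7% of all genes. Both resistant arrays lay below both parental arrays in 2 of the 9, beside 31.0% of all genes. They lay above both in 2, beside 27.9%, and in the other 5 the groups overlapped. TP73, which encodes the p53 relative p73, had 7.25 and 7.35 in resistant arrays, against 10.80 and 11.00 in parental arrays. It fell by 3.60 ± 0.19 (limma, adjusted p = 0.0165), the one non-member of the span that passed. Dim coding genes of the span were ACTRT2 at 0.94 ± 0.40, HES3 at -0.44 ± 0.52 and CCDC27 at -0.33 ± 0.66. Of 4 named non-coding genes none passed. LINC01777 differed by 0.72 ± 0.24, LOC100129534 by -0.34 ± 0.27, PRDM16-DT by -0.24 ± 0.23 and LINC01134 by -0.19 ± 0.41.

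On the distal side, up to the chromosome end, 38 genes were measured with a median difference of -0.42, of which 0 passed. Of these 38 genes, 26 lay below 0, beside 51.7% of all genes. With the prior following intensity 8 passed lower, beside 11.5% of all genes. The nearest to the span were CALML6 (-0.89 ± 0.41), TMEM52 (-1.02 ± 0.51) and GABRD (-0.21 ± 0.32), all dim. The largest differences there were those of VWA1 (-1.26 ± 0.24), LINC02593 (-1.19 ± 0.32) and MIB2, a ubiquitin ligase of Notch ligands (-1.16 ± 0.18). MIB2 had 12.16 and 12.24 in resistant arrays, against 13.33 and 13.38 in parental arrays, and lay just outside the threshold (limma, adjusted p = 0.0501).

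The 40 measured genes proximal to NOL9 had a median difference of -0.30, with 28 below 0 and 12 above. Both resistant arrays lay below both parental arrays in 22 of the 40 and above them in 10. The nearest were TAS1R1 (-0.31 ± 0.29), ZBTB48 (-0.26 ± 0.18) and KLHL21 (-1.03 ± 0.19). CAMTA1 (2.62 ± 0.51) and TNFRSF9 (2.56 ± 0.53) had the largest differences, from parental means of 4.35 and 4.95, and did not pass with the constant prior but did with the prior following intensity (limma, 0.0210 for CAMTA1 and 0.0180 for TNFRSF9, both adjusted). ERRFI1, a feedback inhibitor of the EGF receptor, had 11.98 and 12.08 in resistant arrays, against 9.82 and 10.12 in parental arrays. It rose by 2.06 ± 0.21 (limma, adjusted p = 0.0289). In all, 2 genes of the proximal stretch passed higher and 1 lower with the constant prior, beside 3.26% and 2.83% of all genes. With the prior following intensity 7 passed higher and 9 lower, beside 9.93% and 11.5%. The 1448 other measured genes of chromosome 1 had a median difference of -0.18, and 60.4% of these genes lay below 0. The members' median was -0.73. The differences between stretches were not tested.

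The partners of the members were read from 12 lists of 88 genes, of which 79 were measured. The lists were chosen from textbook knowledge with earlier results of these data known. Some of their genes, such as HES4 and TNFRSF9, were also counted above as distal or proximal genes. Of these 79 genes, 1 fell and 4 rose, beside 2.83% and 3.26% of all genes, and their median difference was 0.11. With the prior following intensity 8 passed lower and 10 higher, beside 11.5% and 9.93% of all genes. The members' own median was -0.73, and the difference between the 2 medians was not tested.

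**Figure D3:**
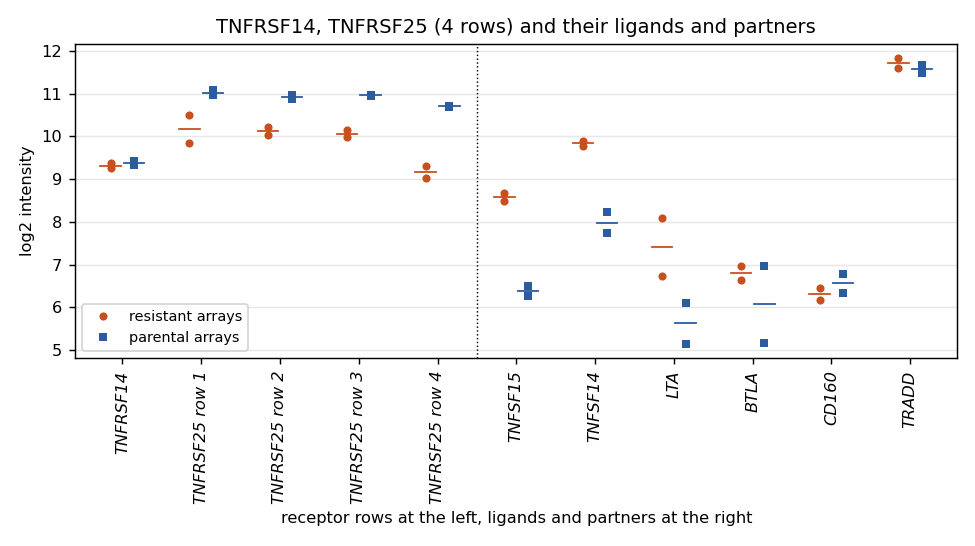
Log2 intensity on each array of TNFRSF14, of the 4 rows of TNFRSF25 and of their ligands and partners, with resistant arrays as circles on the left and parental arrays as squares on the right of each item; lines are group means (n = 2). The 4 receptor rows of TNFRSF25 are lower in resistant arrays, while TNFSF15 and TNFSF14 are higher. Rows 1 to 4 are in order of brightness.

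Of 6 measured ligands and partners of TNFRSF14 and TNFRSF25, 2 rose, beside 3.26% of all genes. TNFSF15, the ligand of death receptor 3, had 8.49 and 8.67 in resistant arrays, against 6.50 and 6.27 in parental arrays. It rose by 2.20 ± 0.20, or 4.59-fold (limma, adjusted p = 0.0249). TNFSF14, the ligand LIGHT of TNFRSF14, had 9.78 and 9.90 in resistant arrays, against 7.74 and 8.22 in parental arrays, and rose by 1.85 ± 0.25 (limma, adjusted p = 0.0416). In both ligands the groups were well separated, whereas the receptor TNFRSF14 overlapped and TNFRSF25 was lower. LTA (1.79 ± 0.61), BTLA (0.73 ± 0.68), CD160 (-0.25 ± 0.26) and the adaptor TRADD (0.15 ± 0.20) did not pass. Of the other TNF receptor genes of 1p36, TNFRSF9 differed by 2.56 ± 0.53, TNFRSF18 by 0.34 ± 0.20, TNFRSF4 by -0.43 ± 0.47 and TNFRSF8 by -0.19 ± 0.33, and 0 of 4 passed with the constant prior.

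Of 6 measured relatives of HES2 and HES5 outside the span, 0 passed with the constant prior. HES1, the main Notch-induced repressor, differed by -1.32 ± 0.23 (limma, adjusted p = 0.0618, and 0.00197 with the prior following intensity). HES7 differed the other way, by 1.48 ± 0.27 (limma, adjusted p = 0.0662, and 0.00495). HEY1 differed by -1.65 ± 0.60, HES4 by -0.39 ± 0.19, HEYL by 0.35 ± 0.45 and HES6 by 0.25 ± 0.34. None of these 6 genes, nor HES3 or HES5, differed by as much as HES2. Since HES2 was listed with its difference known, nothing is read from this order.

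In the polarity complex of PRKCZ, 2 genes rose and 1 fell, beside 3.26% and 2.83% of all genes. PARD6B, an adaptor that binds atypical protein kinase C, had 9.12 and 8.89 in resistant arrays, against 6.36 and 6.60 in parental arrays, and rose by 2.52 ± 0.21 (limma, adjusted p = 0.0217). Its relative PARD6G had 5.47 and 5.35 in resistant arrays, against 7.87 and 7.48 in parental arrays, and fell by 2.26 ± 0.23 (limma, adjusted p = 0.0288). The scaffold PARD3 rose by 1.57 ± 0.21 (limma, adjusted p = 0.0402). The other 5 of 8 measured genes did not pass with the constant prior. With the prior following intensity 3 of the 8 passed lower and 3 higher, beside 11.5% and 9.93% of all genes.

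**Figure D4:**
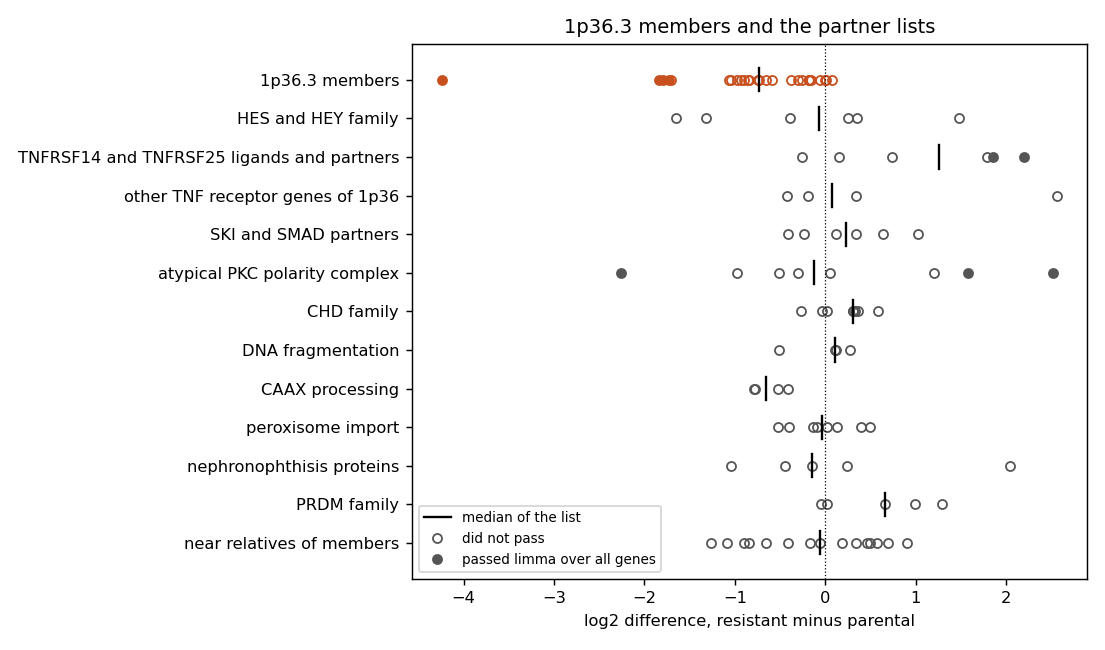
Log2 difference, resistant minus parental, of each measured gene of the 1p36.3 members (top) and of the 12 partner lists; filled points passed limma's test over all genes, open points did not, and vertical lines are the medians. The members centre on -0.73, and the medians of the 12 lists lie between -0.65 and 1.26.

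In the remaining lists 0 genes passed with the constant prior. With the prior following intensity 4 passed lower and 3 higher, beside 11.5% and 9.93% of all genes. Among 6 partners of SKI, SMAD3 (1.03 ± 0.20), SMAD2 (0.64 ± 0.21), HDAC1 (-0.42 ± 0.18), SMAD4 (0.34 ± 0.18), NCOR1 (-0.23 ± 0.34) and SKIL (0.12 ± 0.74) went both ways. The 4 measured genes that act with ICMT on CAAX proteins all had negative differences, as had 51.7% of all genes. ZMPSTE24 differed by -0.78 ± 0.21, PGGT1B by -0.78 ± 0.29, FNTB by -0.52 ± 0.20 and RCE1 by -0.41 ± 0.18. Of the partners of the unmeasured DFFB, a nuclease of apoptotic DNA fragmentation, ENDOG differed by -0.51 ± 0.20 and DFFA by 0.11 ± 0.20.

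Among 8 peroxins the smallest p belonged to PEX2 (0.50 ± 0.19) and PEX14 (-0.52 ± 0.21). Of the nephronophthisis proteins, RPGRIP1L differed by 0.24 ± 0.30, INVS by -0.14 ± 0.24 and CEP290 by -0.44 ± 0.80. Of 8 relatives of CHD5, a chromatin remodeller, CHD6 (0.31 ± 0.19), CHD8 (0.31 ± 0.19) and CHD7 (0.58 ± 0.38) had the smallest p. The measured relatives of PRDM16 included MECOM (0.99 ± 0.38), PRDM1 (1.29 ± 0.65), PRDM15 (-0.05 ± 0.20) and PRDM10 (0.02 ± 0.44). Among 15 measured near relatives of other members, PANK1 (-1.26 ± 0.20), PRXL2C (-1.08 ± 0.22) and KCNAB1 (0.91 ± 0.19) had the smallest p.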

How the data were processed

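The 4 samples were 1-colour NimbleGen arrays. The labels' protocols describe oligo-dT primed ds-cDNA, labelled with Cy3 random primers, so that both strands carry dye. The authors deposited normalized intensity values on a linear scale, made with RMA per the submitters' processing notes. The RMA version, the genome build and any row filter are not given in the sources used here. Rows were named through the platform annotation (17899 rows) and RefSeq accessions (674 rows), and the row with the highest mean stood for a gene. Log2 values were fitted without further normalization with limma 3.58.1 in R 4.3.3 (lmFit, eBayes, constant prior variance, no covariate) over 15073 genes, with Benjamini-Hochberg adjustment and a threshold of 0.05. No detection calls were used, and 2 arrays per group limit the precision. The members and lists were chosen with earlier results of these data known.

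Other genes named were, by rule, the 5 coding genes of the span with the largest difference, all its named non-coding genes, the 3 nearest and the 3 with the largest difference on each side, and every gene of a partner list of up to 6 measured genes, otherwise the 3 with the smallest p. Some genes that this rule names are not reported here. Gene order and promoter windows came from RefSeq (GRCh38.p14). Scripts were tested on simulated data, where the constant prior called none of the genes made to differ and the prior following intensity called most of them, so a gene that did not pass is not shown to be unchanged. Alternatives were median centring, quantile normalization, an offset of 32, a minimum mean of 7, the mean of a gene's rows, all rows together, a prior following intensity, a replicate block and leaving out each array.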

Additional observations from a re-analysis of the deposited data

How the results depend on the processing

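Over all genes, 492 passed higher and 427 lower in resistant cells, and 4 members passed lower. With an offset of 32 the counts over all genes were 917 and 851, with 6 members lower. With a minimum mean of 7 only 9777 genes and 25 members were tested. The counts were then 1304 and 1432, with 11 members. With a prior following intensity they were 1497 and 1737 of 15073 genes, with 12 members. When all rows were tested together 0 rows passed either way in limma, and 0 members, although 4350 rows were higher and 3546 lower at an unadjusted p under 0.05, and 2073 rows passed higher and 1887 lower with a prior following intensity. Without any 1 array 0 genes passed either way and 0 members, lowest and highest alike, with 1 residual degree of freedom. With the replicate block 0 genes passed either way and 0 members, again with 1 residual degree of freedom. With the replicate block and a prior following intensity 1628 genes passed higher and 1872 lower, with 13 members. Deviations of same-numbered arrays correlated at 0.14 over genes, but with 2 pairs the arrays share only a number. The members' median of -0.73 lay between -0.80 and -0.58 without 1 array, with -0.58 reached without parental replicate 2. The median of the other span genes (-0.33) was -0.63 with a minimum mean of 7 and lay between -0.49 and -0.12 without 1 array, being -0.12 without resistant replicate 2. The distal median (-0.42) was -0.49 with median centring, -0.46 with quantile normalization, -0.37 with the offset and -0.46 with the minimum mean, and lay between -0.44 and -0.36 without 1 array. The proximal median (-0.30) was -0.37 with median centring and -0.39 with the minimum mean, and lay between -0.33 and -0.21 without 1 array. SKI, RER1, WRAP73, KCNAB2 and RNF207 changed sign under some of these settings, and the other 22 measured members did not. Without 1 array the differences of AJAP1, TNFRSF25, PLEKHG5, NOL9, PRKCZ, TNFRSF14, RPL22 and ICMT moved by over 1.5 times. The causes were not tested beyond the fewer genes or arrays that a setting leaves.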
